A study of Mus musculus with 9 samples.

Results

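The genes described here are 10 of the enzymes, helper proteins and receptors of the prostaglandin and leukotriene pathway, Pla2g4a, Ptgs1, Ptgs2, Ptges, Hpgds, Tbxas1, Ptger4, Alox5, Alox5ap and Lta4h. They were chosen by symbol, and all 10 were found among the 23238 gene symbols of each library. Each member stood on 1 row, so that none had to be summed. Transcripts were counted in microglia sorted from mouse brain as the CD45+CD11b+P2ry12+ population, in 9 libraries that fell into 3 groups of 3. Each library was a pool of 3 mice.

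All mice were female wild-type C57BL/6N animals, aged 12 weeks in the account of the model. Normal mice were untreated. NMO mice were given IgG from patients with neuromyelitis optica (NMO-IgG), which binds the astrocyte water channel aquaporin-4, together with human complement, by injection into the striatum of 1 hemisphere. NMO+CL mice were given the same injection and, 6 h earlier, an intraperitoneal dose of clodronate liposomes, which deplete circulating monocytes and other phagocytes. Brains were taken on day 1. Groups with control IgG, with sham surgery or with liposomes lacking clodronate were not analysed here, so antibody, complement and injury cannot be told apart, nor can clodronate and liposomes. The labels call the libraries separate replicates of each group.

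Arachidonate is cut from membrane phospholipids by cytosolic phospholipase A2 and then takes one of several routes. Cyclooxygenases turn it into prostaglandin H, from which separate synthases make prostaglandin E, prostaglandin D, prostacyclin or thromboxane. On the other route, 5-lipoxygenase, helped by its activating protein, makes leukotriene A, which leukotriene A hydrolase turns into the neutrophil attractant leukotriene B. In brain, cyclooxygenase-1, hematopoietic prostaglandin D synthase and thromboxane synthase are known as enzymes of microglia, whereas 5-lipoxygenase is also abundant in neutrophils, monocytes and macrophages.

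Of the 9 members tested, 2 were called higher and 1 lower in NMO+CL (adjusted p under 0.05), both against Normal, where 4.79% and 4.43% of all tested genes were, and against NMO, where 0.529% and 1.07% were. Alox5 and Alox5ap, which encode 5-lipoxygenase and its activating protein, were higher in NMO+CL than in Normal, by 3.15-fold and 1.93-fold, and also higher than in NMO. Hpgds, which encodes hematopoietic prostaglandin D synthase, was lower in NMO+CL, by 2.34-fold against Normal. In NMO against Normal no member passed the test. The cyclooxygenase genes Ptgs1 and Ptgs2 passed it in none of the 3 comparisons.

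The promoters of Alox5 and Hpgds are shown because these genes were called in opposite directions. Each runs from 250 bases before to 50 bases after the start that RefSeq annotates, on the minus strand of GRCm38.p6, and was taken from RefSeq, which had an entry for 9 of the 10 members. The Alox5 window is chr6:116461129-116461428 and the Hpgds window is chr6:65144681-65144980. GENCODE, the source of the gene coordinates below, places the start of Hpgds upstream of that of RefSeq, at 65144908 within this window. Capitals mark matches on either strand to the purine box bound by PU.1 (GAGGAA), the AP-1 element (TGANTCA), the E-box (CACGTG) or the GC box (GGGCGG), and a match on the other strand stands as its reverse complement.
Alox5: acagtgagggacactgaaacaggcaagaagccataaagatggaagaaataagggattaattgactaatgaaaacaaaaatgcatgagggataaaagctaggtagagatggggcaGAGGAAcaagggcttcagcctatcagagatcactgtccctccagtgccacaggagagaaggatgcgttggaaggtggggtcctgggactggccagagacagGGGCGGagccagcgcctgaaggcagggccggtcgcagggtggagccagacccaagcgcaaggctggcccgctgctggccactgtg
Hpgds: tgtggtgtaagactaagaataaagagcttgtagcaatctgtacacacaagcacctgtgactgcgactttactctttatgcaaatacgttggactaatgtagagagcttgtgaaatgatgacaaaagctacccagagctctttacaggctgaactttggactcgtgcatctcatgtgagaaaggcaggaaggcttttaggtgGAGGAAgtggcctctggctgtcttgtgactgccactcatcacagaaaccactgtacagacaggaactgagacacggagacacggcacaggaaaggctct
Both windows held 1 GAGGAA, which 28.3% of all 32851 promoters of this length held. The Alox5 window also held 1 GGGCGG, a motif found in 35.7% of all promoters. Neither held TGANTCA or CACGTG, which 7.81% and 7.15% of promoters held. GAGGAA was found in the promoters of 7 of the 9 members with an entry. These matches are a description of the letters only.

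Total counts ran from 5788234 to 7837219 per library, and the ribosomal RNA entry Rn45s took 16.0% to 31.0% of them. Levels are given as CPM, read counts scaled to the size of each library after TMM normalization (edgeR's trimmed mean of M values), and errors of group means are standard deviations (SD, n = 3 libraries). Reads came from the 3′ ends of transcripts, and CPM were not divided by length. Levels in CPM are compared between groups for 1 gene at a time. The count ratios of 2 genes given below are compared between libraries without standing for relative transcript levels. The reads were from bulk sorted cells, in which fewer cells of a type and less RNA per cell cannot be told apart. A gene was tested if it passed a filter on low counts, which 12292 genes did, and was called at an adjusted p under 0.05 in edgeR's quasi-likelihood test with Benjamini-Hochberg adjustment over all of these genes. Adjusted p values below are of this kind unless an alternative analysis or another tool is named. The error of a log2 fold change is its standard error (SE). Of the 10 members 9 were tested, since Ptges did not pass the filter.

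NMO replicate 2 had 0 counts of Cbr2, a marker of macrophages at the borders of the brain, whereas the other 8 libraries had 741 to 2467. The microglia markers were high throughout, but 8 of 12 were called lower in NMO+CL than in Normal, and their summed level was 38474 to 43849 CPM in Normal, 32665 to 38589 CPM in NMO and 22829 to 32899 CPM in NMO+CL. Against NMO, 4 of 12 were called lower in NMO+CL (P2ry12, Gpr34, Siglech and Olfml3), and Siglech was also called lower in NMO than in Normal. For P2ry12, the gene of the protein used for sorting, NMO+CL had a log2 fold change of -2.79 ± 0.20 against Normal (adjusted p = 4.62e-07) and of -2.22 ± 0.19 against NMO (adjusted p = 1.73e-05). All group differences of the members below stand beside this difference, and its part in them was not tested.

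Beginning with the release of arachidonate, Pla2g4a encodes cytosolic phospholipase A2 (chr1:149829618-149961290, minus strand of GRCm38). Its level was 54.2, 35.4 and 44.3 CPM in the Normal libraries, 86.1, 101.9 and 43.1 CPM in NMO, and 127.1, 106.0 and 52.7 CPM in NMO+CL. The group means were 44.6 ± 9.41, 77.02 ± 30.4 and 95.2 ± 38.3 CPM. In each injected group 2 libraries lay above every Normal library, and the 3rd, replicate 3 in both, lay within the Normal range. The log2 fold change was 0.79 ± 0.34 for NMO against Normal (adjusted p = 0.465) and 1.09 ± 0.34 for NMO+CL against Normal (adjusted p = 0.0522). Pla2g4a was thus not called, although it was in 9 of 16 alternative analyses of NMO+CL against Normal, where its adjusted p ran from 0.00104 to 0.191. NMO+CL and NMO differed by 0.30 ± 0.33 on the log2 scale (adjusted p = 0.797).

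Ptgs1 and Ptgs2 encode cyclooxygenase-1, the constitutive form, and cyclooxygenase-2, which is induced in many cells by inflammatory stimuli. Ptgs1 (chr2:36230426-36252272, plus strand) was at 816, 1033 and 840 CPM in Normal, at 1089, 902 and 1016 CPM in NMO, and at 877, 1196 and 1158 CPM in NMO+CL. The 3 groups overlapped, and none of the comparisons passed the test. The log2 fold change of NMO against Normal was 0.16 ± 0.17 (adjusted p = 0.894), and NMO+CL differed by 0.10 ± 0.17 from NMO (adjusted p = 0.884) and by 0.27 ± 0.17 from Normal (adjusted p = 0.423). Ptgs1 shares exon sequence with an antisense gene, Gm43621, which had no row of its own.

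Ptgs2 (chr1:150100031-150108227, plus strand) was close to the limit of detection. It had 14, 3 and 13 counts in Normal, 37, 4 and 15 in NMO, and 30, 0 and 10 in NMO+CL, and replicate 2 was the lowest library of each group. A count of 0 in a library of that size allows up to 3 counts. The group means were 1.62 ± 1.02, 2.51 ± 2.09 and 1.99 ± 2.21 CPM. The log2 fold changes had standard errors of 1.63 to 1.64. With this spread of counts between libraries of a group, changes of 2-fold were not detectable. Of the counts of both cyclooxygenase genes, Ptgs2 took at most 0.496% (95% exact binomial interval 0.335% to 0.708%, NMO+CL replicate 1), and in NMO+CL replicate 2 it took 0 of 7384, an interval that ends at 0.0499%. Both transcripts were read from their 3′ ends and these intervals cover counting error only.

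Downstream of the cyclooxygenases, Ptges encodes microsomal prostaglandin E synthase-1 (chr2:30889471-30929863, minus strand). It had counts of 1, 16 and 0 in Normal, 8, 0 and 0 in NMO, and 0, 10 and 0 in NMO+CL. More than 1 count was thus found in only 1 library of each group, and Ptges did not pass the filter. In the analysis without a filter its log2 fold change was -1.29 ± 2.90 for NMO against Normal (adjusted p = 0.951), and NMO+CL differed by 0.65 ± 2.86 from NMO (adjusted p = 1) and by -0.64 ± 2.88 from Normal (adjusted p = 0.965).

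Hpgds (chr6:65117293-65144908, minus strand) stood in a separate range in each group. Its product converts prostaglandin H to prostaglandin D. The level was 475, 580 and 606 CPM in Normal, 413, 356 and 443 CPM in NMO, and 204, 223 and 283 CPM in NMO+CL. The 3 groups did not overlap, and the means were 554 ± 69.7, 404 ± 44.0 and 237 ± 41.4 CPM. NMO+CL had a log2 fold change of -1.23 ± 0.19 against Normal (adjusted p = 5.03e-04) and of -0.77 ± 0.19 against NMO (adjusted p = 0.0457). For NMO against Normal it was -0.45 ± 0.19, which was not called (adjusted p = 0.439). Normal and NMO, neighbours in this order, thus did not differ by the test.

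The Hpgds call against Normal was kept in 16 of 16 alternative analyses, with the highest adjusted p, 0.00638, without NMO+CL replicate 2. The call against NMO was kept in 5 of 16. It was lost with DESeq2 size factors (adjusted p = 0.0653), with library totals alone (0.0529), with only the 2 groups in the fit (0.125), and without any 1 library other than NMO+CL replicate 3 (up to 0.216), while the log2 fold change stayed between -0.92 and -0.67. Mast cells also make this enzyme, and their 6 markers summed to at most 5.60 CPM in any library, with Cma1 and Fcer1a at 0 in all 9. The part of mast cell RNA in the levels of Hpgds was not tested.

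Tbxas1 encodes thromboxane A synthase (chr6:38875404-39084585, plus strand). Its level was 145, 233 and 219 CPM in Normal, 213, 203 and 167 CPM in NMO, and 157, 176 and 154 CPM in NMO+CL. The NMO+CL libraries lay inside the range of Normal, and the log2 fold change was -0.29 ± 0.21 (adjusted p = 0.474). Against NMO it was -0.26 ± 0.21 (adjusted p = 0.675), and for NMO against Normal -0.03 ± 0.21 (adjusted p = 0.992), a value whose sign turned with library totals alone. Platelets are rich in this enzyme. Their 8 markers summed to 43.7 to 55.8 CPM in Normal, 27.4 to 39.6 CPM in NMO and 16.0 to 23.1 CPM in NMO+CL, with Gp5 and Tubb1 at 0 in all libraries of NMO and NMO+CL, and 1 marker of 4 tested, Gp9, was called lower in NMO+CL than in Normal. Gp9 (mean 27.5 CPM in Normal and 5.53 CPM in NMO+CL) and Treml1 (17.2 and 8.96 CPM) made up most of the sums, whereas Gp1ba (1.53 and 1.43 CPM), Clec1b (1.115 and 0.875 CPM) and Ppbp (0.451 and 1.39 CPM) were low in both groups. The part of platelet RNA in the levels of Tbxas1 was not tested.

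The single receptor among the members, Ptger4, encodes the EP4 receptor for prostaglandin E (chr15:5206661-5244187, minus strand). It had 20, 13 and 16 counts in Normal, 101, 113 and 21 in NMO, and 19, 75 and 100 in NMO+CL. In CPM these were 3.19, 1.96 and 2.69 in Normal, 12.7, 13.5 and 3.36 in NMO, and 2.77, 12.2 and 16.0 in NMO+CL. Each injected group thus held 2 libraries well above Normal and 1 near it. The log2 fold change was 1.91 ± 0.78 for NMO against Normal (adjusted p = 0.433) and 1.97 ± 0.78 for NMO+CL against Normal (adjusted p = 0.132), and neither was called. Exons of Ptger4 overlap those of Ttc33 on the opposite strand, which had 56 to 181 counts. Whether counting used strand was not stated, so reads of the 2 genes may not be separate.

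**Figure D1:**
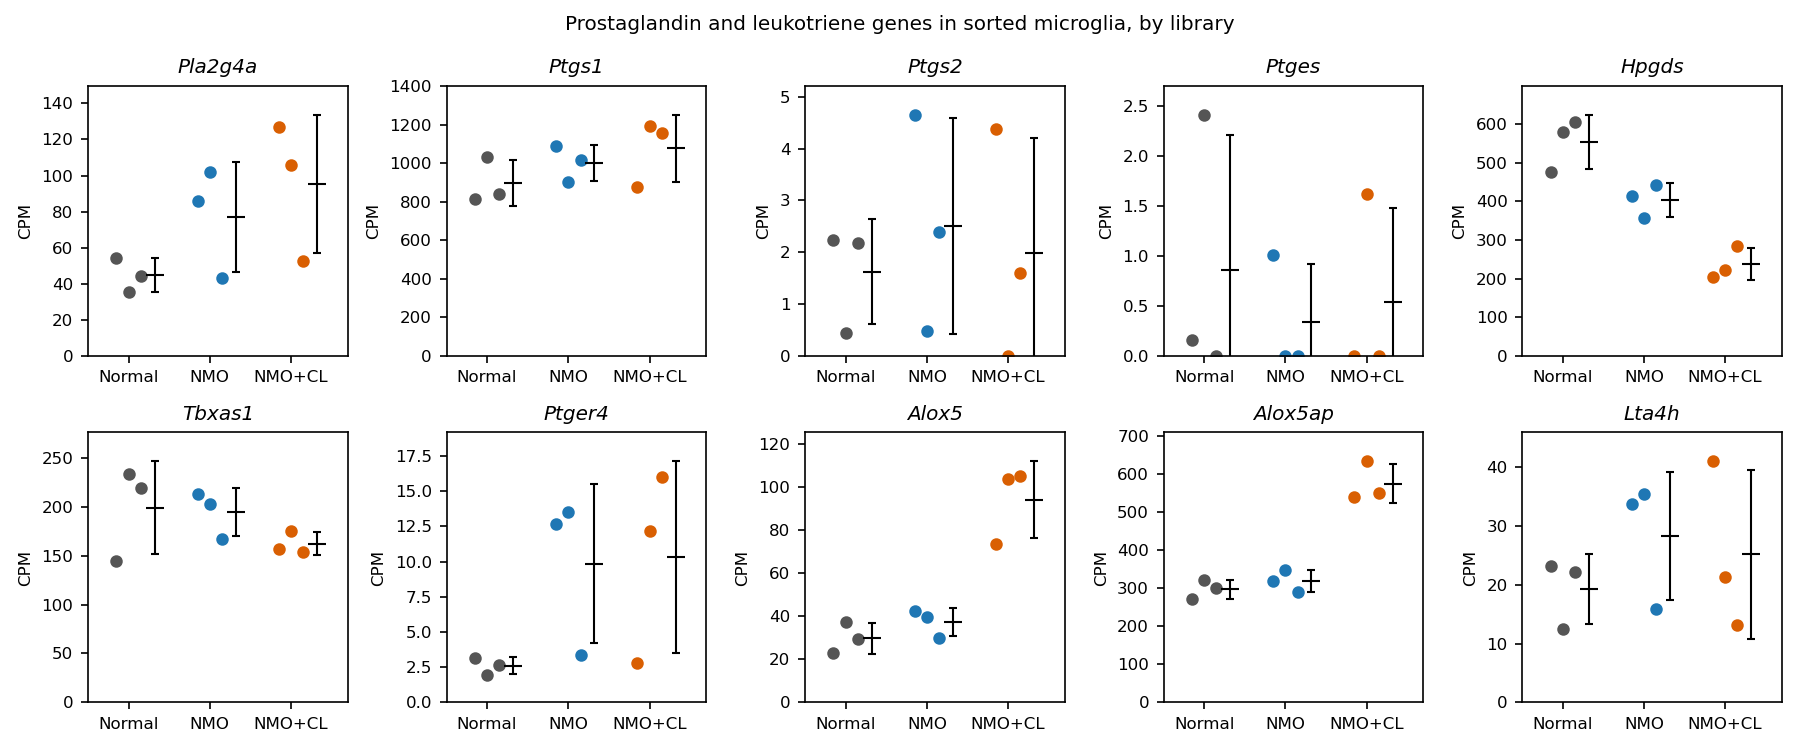
Level of each of the 10 genes in CPM (vertical axis, linear, from 0) in the 3 libraries of Normal, NMO and NMO+CL, with replicates 1 to 3 from left to right as points and the mean ± SD as a black bar. The NMO+CL libraries lie above all others for Alox5 and Alox5ap and below all others for Hpgds, whereas Pla2g4a and Lta4h in both injected groups, and Ptger4 in NMO+CL, have a library within the Normal range.

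Alox5 (chr6:116410077-116461178, minus strand) encodes the enzyme that opens the leukotriene branch. Its level was 22.8, 37.2 and 29.4 CPM in Normal, 42.4, 39.6 and 30.1 CPM in NMO, and 73.5, 103.5 and 105.0 CPM in NMO+CL. Every NMO+CL library lay above every library of the other groups, while Normal and NMO overlapped. The means were 29.8 ± 7.20, 37.4 ± 6.44 and 94.0 ± 17.8 CPM. NMO+CL had a log2 fold change of 1.66 ± 0.28 against Normal (adjusted p = 9.84e-04) and of 1.33 ± 0.27 against NMO (adjusted p = 0.0190). NMO against Normal had one of 0.33 ± 0.27 (adjusted p = 0.821).

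Alox5ap (chr5:149264767-149288153, plus strand) encodes the 5-lipoxygenase activating protein, a membrane protein that presents arachidonate to the enzyme. Its level was 271, 321 and 300 CPM in Normal, 318, 350 and 292 CPM in NMO, and 540, 634 and 551 CPM in NMO+CL. As with Alox5, Normal and NMO overlapped and NMO+CL stood above both. The means were 297 ± 25.1, 320 ± 29.0 and 575 ± 51.2 CPM. In NMO+CL it differed by 0.95 ± 0.17 on the log2 scale from Normal (adjusted p = 0.00165) and by 0.85 ± 0.17 from NMO (adjusted p = 0.0177). NMO differed from Normal by 0.10 ± 0.17 (adjusted p = 0.9495). Of its last 500 transcribed bases, 107 are antisense to Gm19719, which had no row of its own.

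Against Normal, both genes were called in 16 of 16 alternative analyses, with the highest adjusted p without NMO+CL replicate 2 (0.00845 for Alox5 and 0.0161 for Alox5ap). Against NMO, the Alox5 call was kept in 12 of 16 and was lost when NMO replicate 1 (adjusted p = 0.0580), its replicate 3 (0.0632), NMO+CL replicate 2 (0.115) or its replicate 3 (0.0514) was left out. The Alox5ap call was kept in 13 of 16 and was lost when NMO replicate 1 (0.0815), its replicate 3 (0.0591) or NMO+CL replicate 2 (0.119) was left out. The log2 fold changes against NMO stayed between 1.20 and 1.48 for Alox5 and between 0.77 and 0.92 for Alox5ap.

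Lta4h encodes leukotriene A hydrolase (chr10:93453411-93484875, plus strand), the enzyme that completes leukotriene B. Its level was 23.3, 12.5 and 22.2 CPM in Normal, 33.8, 35.4 and 15.9 CPM in NMO, and 41.0, 21.4 and 13.1 CPM in NMO+CL. The 3 groups overlapped, and Lta4h did not pass the test with Alox5 and Alox5ap. The log2 fold change of NMO+CL was 0.38 ± 0.45 against Normal (adjusted p = 0.722) and -0.17 ± 0.44 against NMO (adjusted p = 0.941), and that of NMO against Normal was 0.56 ± 0.45 (adjusted p = 0.802). Its last 500 transcribed bases match a gene without a row, Gm4854, over 378 bases at 91.5% identity, and reads with several alignments were counted.

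Within a library, the ratio of Alox5 to Hpgds counts is free of library size. It was 0.0480, 0.0640 and 0.0486 in Normal, 0.103, 0.111 and 0.0679 in NMO, and 0.361, 0.464 and 0.371 in NMO+CL. The ratio of Alox5ap to Hpgds was 0.571, 0.554 and 0.494 in Normal, 0.771, 0.981 and 0.658 in NMO, and 2.65, 2.84 and 1.95 in NMO+CL. For both ratios the 3 groups did not overlap, in the order Normal, NMO, NMO+CL. The ratios were formed after the members' values were seen and were not tested. Hpgds was called in the direction opposite to Alox5 and Alox5ap, so the separate ratios of NMO+CL follow from those calls. In NMO against Normal none of the 3 genes was called. The share of other gene pairs with separate groups was not worked out.

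**Figure D2:**
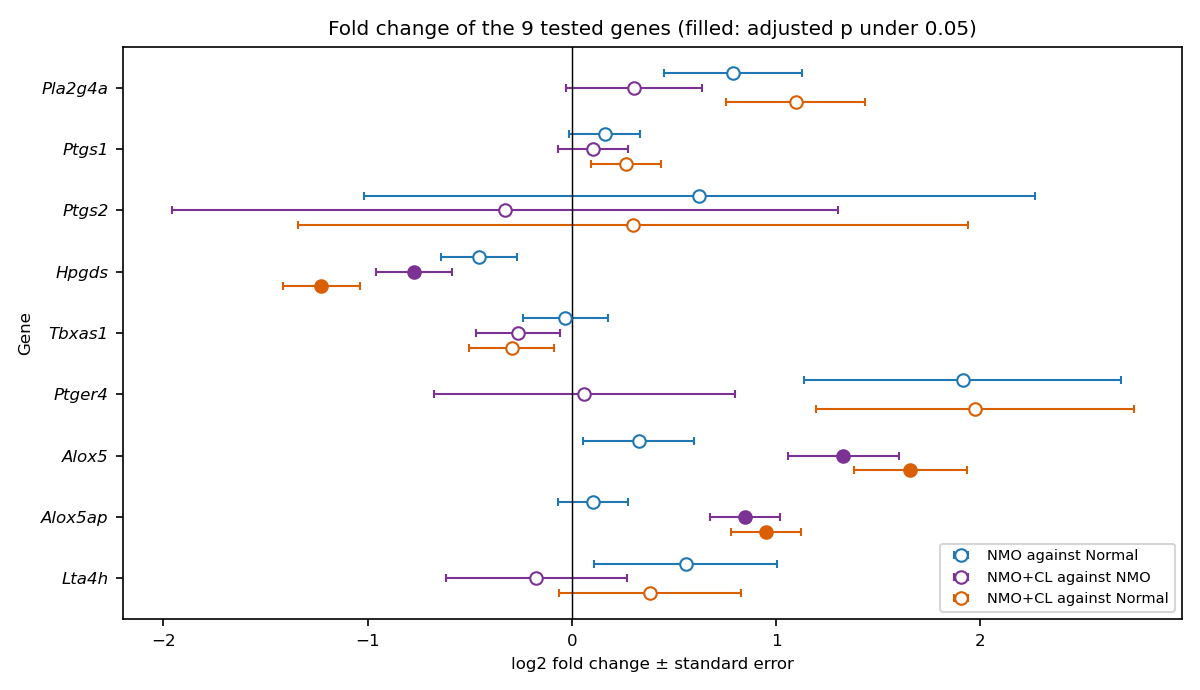
Log2 fold change ± SE (horizontal axis) of the 9 tested genes (vertical axis) in the 3 comparisons of Normal, NMO and NMO+CL libraries, filled where the adjusted p was under 0.05. The filled points are those of Hpgds below 0 and of Alox5 and Alox5ap above 0, in both comparisons of NMO+CL, and the bars of Ptgs2 span more than 3 log2 units.

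Read together, the members' counts stand against those of all tested genes as follows, with the reminder that each pair of comparisons shares a group of libraries. In NMO against Normal, 0 of 9 members were called higher and 0 lower by edgeR's quasi-likelihood test, where 0.472% and 0.0244% of all genes were. At an unadjusted p under 0.05 there were 3 (Hpgds, Pla2g4a and Ptger4), against 9.51% of all genes, and no other tool run called a member. Ptger4 was higher and Hpgds lower without overlap between the groups, which 9.21% and 8.20% of all genes were in these directions. The median log2 fold change of the 9 members was 0.33, against -0.01 over all genes.

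In NMO+CL against NMO, 2 of 9 members were called higher and 1 lower, against 0.529% and 1.07% of all genes. The same 3 genes did not overlap between these groups, against 7.89% of all genes on the higher and 9.22% on the lower side. The median over the members was 0.06. In NMO+CL against Normal, again 2 were called higher and 1 lower, against 4.79% and 4.43% of all genes, and the groups did not overlap for these 3, against 13.8% higher and 14.9% lower. The median over the members was 0.38, against -0.01 over all genes in both comparisons.

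Markers of the cells that could add leukotriene transcripts to the sort were read beside these calls. The paper used P2ry12, part of the gate of this sort, to tell microglia from monocytes and macrophages. The 10 neutrophil markers summed to 101 to 585 CPM in Normal, 155 to 482 CPM in NMO and 299 to 1368 CPM in NMO+CL, with 0 of 10 called in any comparison and none at 0 throughout a group. In single libraries the sums were 585, 101 and 129 CPM in Normal, 324, 155 and 482 CPM in NMO, and 1368, 299 and 532 CPM in NMO+CL, beside Alox5 levels in NMO+CL of 73.5, 103.5 and 105.0 CPM. Only Normal replicate 1 brought the Normal range up to those of the injected groups. S100a8 and S100a9 made up most of the highest sum, with 503.5 and 610.8 of its 1368 CPM. For 9 of the 10 markers the NMO+CL mean exceeded those of Normal and of NMO, and the median log2 fold change of the 10 was 0.74 against NMO and 0.85 against Normal. The exception, Csf3r, was at a mean of 63.4 CPM in Normal, 70.4 CPM in NMO and 36.0 CPM in NMO+CL. The 10 monocyte markers summed to 34.8 to 67.9 CPM in Normal, 43.5 to 91.0 CPM in NMO and 67.4 to 113 CPM in NMO+CL, and 1 of 10, Fn1, was called higher in NMO+CL than in Normal, with none at 0 throughout a group. The markers did not move together. Mean levels in NMO and NMO+CL were 6.97 and 24.2 CPM for Fn1 and 8.32 and 24.9 CPM for Chil3, but 15.3 and 5.60 CPM for Ccr2, 9.85 and 4.17 CPM for Plac8 and 5.02 and 2.02 CPM for Vcan, and none of these differences was called. The 9 markers of border macrophages summed to 160 to 308, 10.8 to 195 and 224 to 412 CPM, with 0 of 6 tested called. Cbr2 made up most of these sums, with 395 of 412 CPM in NMO+CL replicate 3, and without NMO replicate 2, where it was at 0, the NMO sums were 169 and 195 CPM. Mean levels in Normal and NMO+CL were 15.7 and 14.3 CPM for Mrc1 and 8.03 and 6.14 CPM for Lyve1, but 1.27 and 7.11 CPM for F13a1. Folr2 was at 0 throughout Normal, Cd163 and Cd209f throughout NMO, and Cd163 throughout NMO+CL. In NMO+CL replicates 1, 2 and 3, monocyte markers summed to 113, 84.1 and 67.4 CPM and border macrophage markers to 224, 286 and 412 CPM. The part of neutrophil, monocyte and border macrophage RNA in the levels of Alox5 and Alox5ap was not tested.

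**Figure D3:**
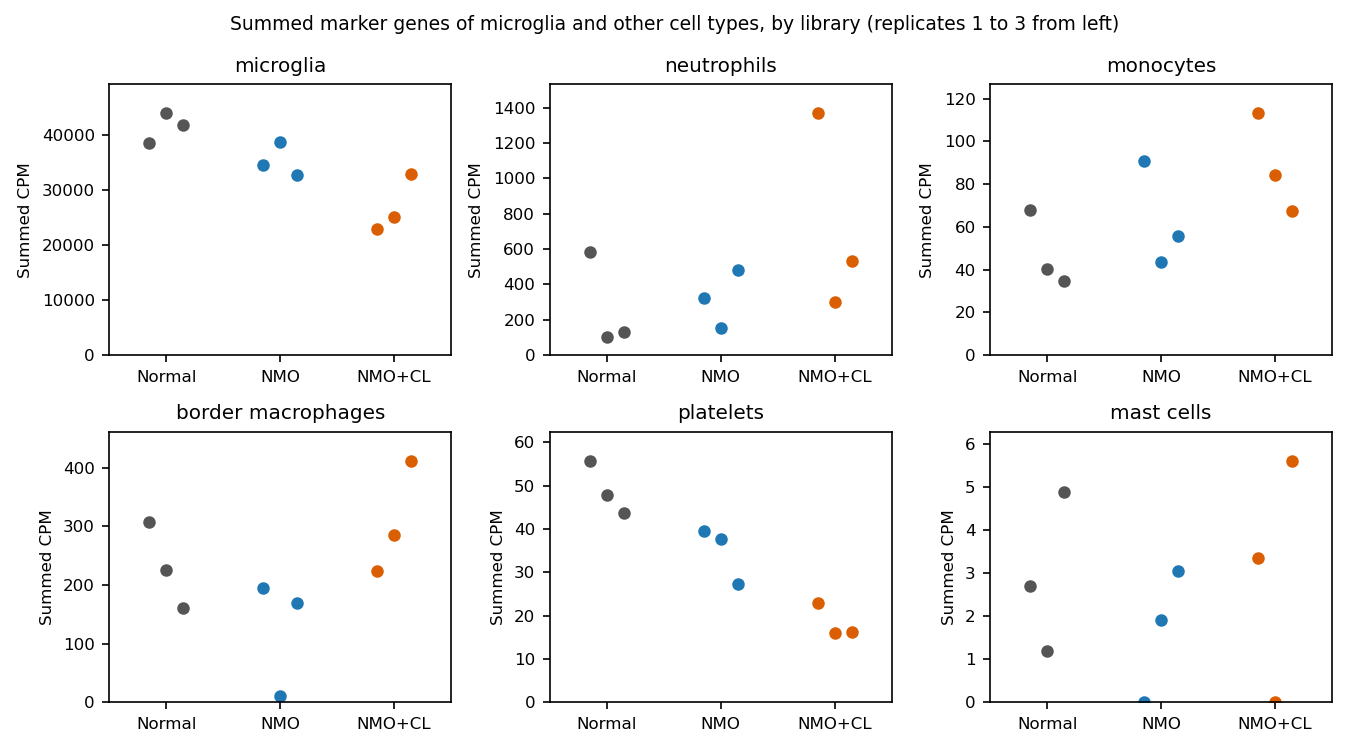
Summed CPM (vertical axes, linear, from 0) of the markers of microglia, neutrophils, monocytes, border macrophages, platelets and mast cells in each library of the 3 groups. The platelet sums of NMO+CL lie below all others, its microglia sums lie below those of Normal, and the neutrophil sum of NMO+CL replicate 1, 1368 CPM, stands above that of every other library.

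Astrocyte, oligodendrocyte and endothelial markers summed to 68.0 to 124 CPM in Normal, 60.1 to 64.8 CPM in NMO and 49.1 to 54.0 CPM in NMO+CL. Of these, 1 of 7 tested was called, Slc1a2, which was lower in NMO+CL, with 1, 0 and 0 counts, than in Normal, with 120, 0 and 45 counts (adjusted p = 0.0298). Lymphocyte markers, with Cd3e at 0 in all libraries, stayed at or below 22.4 CPM. Early genes of tissue dissociation summed to 4179 to 6043, 4029 to 5506 and 4637 to 5124 CPM, and 1 of 10, Ier2, was called higher in NMO+CL than in Normal.

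A wider list held 63 further symbols of the pathway, of which 61 had a row, 35 were tested and 11 had 0 counts in all libraries. In NMO against Normal 0 of 35 were called by edgeR's quasi-likelihood test. At an unadjusted p under 0.05 there were 4 (Pla2g2d, Ptges3, Hpgd and Ptgdr2), a share near the 9.51% of all genes, and DESeq2 called Hpgd (adjusted p = 0.0192) and Ptges3 (adjusted p = 0.0456). In NMO+CL against NMO 1 of 35, Lpcat2, was called lower by edgeR's quasi-likelihood test, where 1.07% of all genes were. There 10 of 35 had an unadjusted p under 0.05, where 12.4% of all genes did. In NMO+CL against Normal 3 of 35 were called higher (Ptges2, Ptges3 and Ptgdr2) and 3 lower (Hpgd, Mgll and Lpcat2), and 9 of 35 had an unadjusted p under 0.05, where 22.3% of all genes did. The calls stand beside the 4.79% and 4.43% of all genes that were called higher and lower in the last comparison.

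On the side of breakdown, Hpgd encodes the dehydrogenase that inactivates prostaglandins. Its level was 174, 117 and 203 CPM in Normal, 74.9, 98.6 and 85.0 CPM in NMO, and 63.3, 54.6 and 39.6 CPM in NMO+CL. Like Hpgds, it did not overlap between any 2 groups. NMO+CL had a log2 fold change of -1.65 ± 0.25 against Normal (adjusted p = 4.72e-04, kept in 16 of 16 alternatives). Against NMO it was -0.72 ± 0.25 (adjusted p = 0.195), and NMO against Normal gave -0.93 ± 0.25 (adjusted p = 0.118). Hpgd was the only 1 of 6 tested genes of prostaglandin breakdown and transport that was called, and the median of these 6 was -0.63 in NMO+CL against Normal.

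Among 7 tested prostaglandin synthases, 2 genes of other prostaglandin E synthases were called higher in NMO+CL than in Normal. Ptges2 was at 8.61, 5.42 and 4.54 CPM in Normal, 5.28, 12.4 and 12.97 CPM in NMO, and 22.2, 28.0 and 20.5 CPM in NMO+CL, a log2 fold change of 1.93 ± 0.50 (adjusted p = 0.0210). Ptges3, whose product p23 is also a co-chaperone of Hsp90, was at 75.5, 72.1 and 77.9 CPM in Normal, 126, 141 and 103 CPM in NMO, and 124, 146 and 121 CPM in NMO+CL, a log2 fold change of 0.80 ± 0.20 (adjusted p = 0.0188). For Ptges2 every NMO+CL library lay above every NMO library, whereas for Ptges3 these groups overlapped and every NMO library lay above Normal. The Ptges2 call was lost without Normal replicate 2 or 3 or NMO+CL replicate 2 (adjusted p up to 0.0964), and the Ptges3 call without any 1 Normal library or NMO+CL replicate 2 (up to 0.0912). The last 500 transcribed bases of Ptges2 match stretches of transcripts of 4 other genes, over 94 bases at 90.4% identity for Pde5a.

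Of 10 tested genes of phospholipid release and re-uptake, 2 were called lower in NMO+CL than in Normal. Mgll encodes monoacylglycerol lipase, which supplies arachidonate from an endocannabinoid in brain. Its level was 122, 126 and 115 CPM in Normal, 70.0, 103 and 140 CPM in NMO, and 57.9, 32.9 and 63.1 CPM in NMO+CL. Against Normal, NMO+CL differed by -1.23 ± 0.28 on the log2 scale (adjusted p = 0.00842). Without NMO+CL replicate 2 the adjusted p was 0.0551. Against NMO the log2 fold change of Mgll was -1.02 ± 0.28, not called (adjusted p = 0.0810) but called in 2 of 16 alternatives. Lpcat2, which returns fatty acids to lysophospholipids and makes platelet-activating factor, was at 652.5, 513 and 666.5 CPM in Normal, 535, 717 and 382 CPM in NMO, and 307, 264 and 322 CPM in NMO+CL. Its log2 fold change was -1.03 ± 0.21 against Normal (adjusted p = 0.00486, kept in 16 of 16 alternatives) and -0.87 ± 0.21 against NMO (adjusted p = 0.0497, kept in 5 of 16). The NMO+CL libraries of both genes lay below all others.

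**Figure D4:**
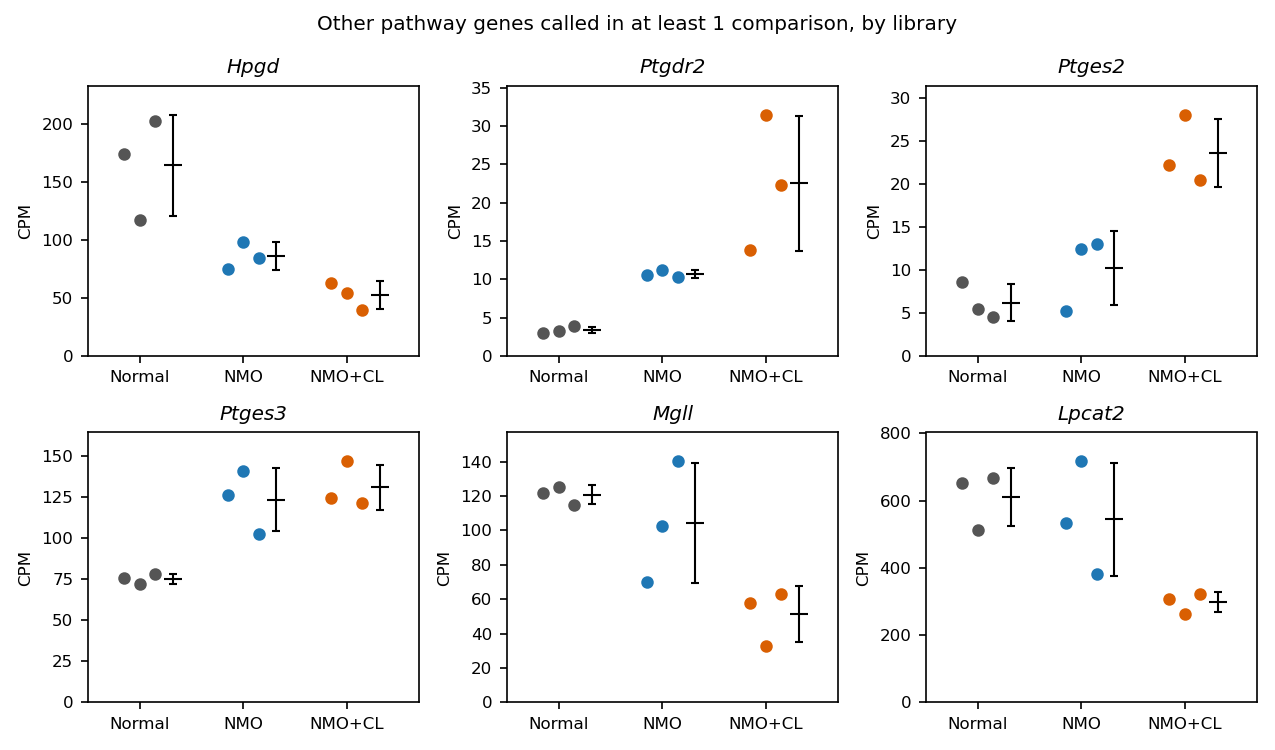
Level in CPM (vertical axes, linear, from 0) of the 6 genes of the wider list that were called in at least 1 comparison, for each library of Normal, NMO and NMO+CL, with the mean ± SD as a black bar. For Hpgd and Ptgdr2 the 3 groups do not overlap, for Ptges3 both injected groups lie above Normal, and for Mgll and Lpcat2 the NMO+CL libraries lie below all others.

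Among the prostanoid receptors 2 of 9 were tested, and Ptgdr2, the CRTH2 receptor for prostaglandin D, was called. It had 19, 22 and 23 counts in Normal, 84, 94 and 64 in NMO, and 95, 194 and 139 in NMO+CL, with a log2 fold change of 2.72 ± 0.51 for NMO+CL against Normal (adjusted p = 0.00228). However, its last 500 transcribed bases are entirely antisense to Ccdc86. Ccdc86 had 158, 277 and 176 counts in Normal, 424, 526 and 326 in NMO, and 723, 894 and 765 in NMO+CL, with a log2 fold change of 1.95 (adjusted p = 1.13e-04). In both genes the 3 groups stood in the same order without overlap. Since the use of strand in counting was not stated, reads of Ptgdr2 and Ccdc86 cannot be told apart here.

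The remaining lists held no called gene. Of 9 further genes of leukotriene synthesis and breakdown, 8 were tested, with a median log2 fold change of -0.49 in NMO+CL against Normal. Ltc4s, which encodes leukotriene C synthase and so stands on the branch opposite to Lta4h, had a log2 fold change of -0.56 ± 0.20 (adjusted p = 0.103). Cyp4f18, a cytochrome P450 that inactivates leukotriene B in neutrophils, had 8, 0 and 5 counts in Normal, 11, 30 and 0 in NMO, and 52, 97 and 69 in NMO+CL. Its NMO+CL libraries lay above all others, with a log2 fold change of 3.99 ± 1.36 against Normal that was not called (adjusted p = 0.0786). Of 4 leukotriene receptors only Cysltr1 passed the filter, at -0.05 ± 0.24 (adjusted p = 0.949), and of 8 other lipoxygenase, epoxide hydrolase and lipoxin receptor genes only Fpr2 did. The 3 comparisons share libraries, so the directions given for a gene in different comparisons are not independent of each other.

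**Figure D5:**
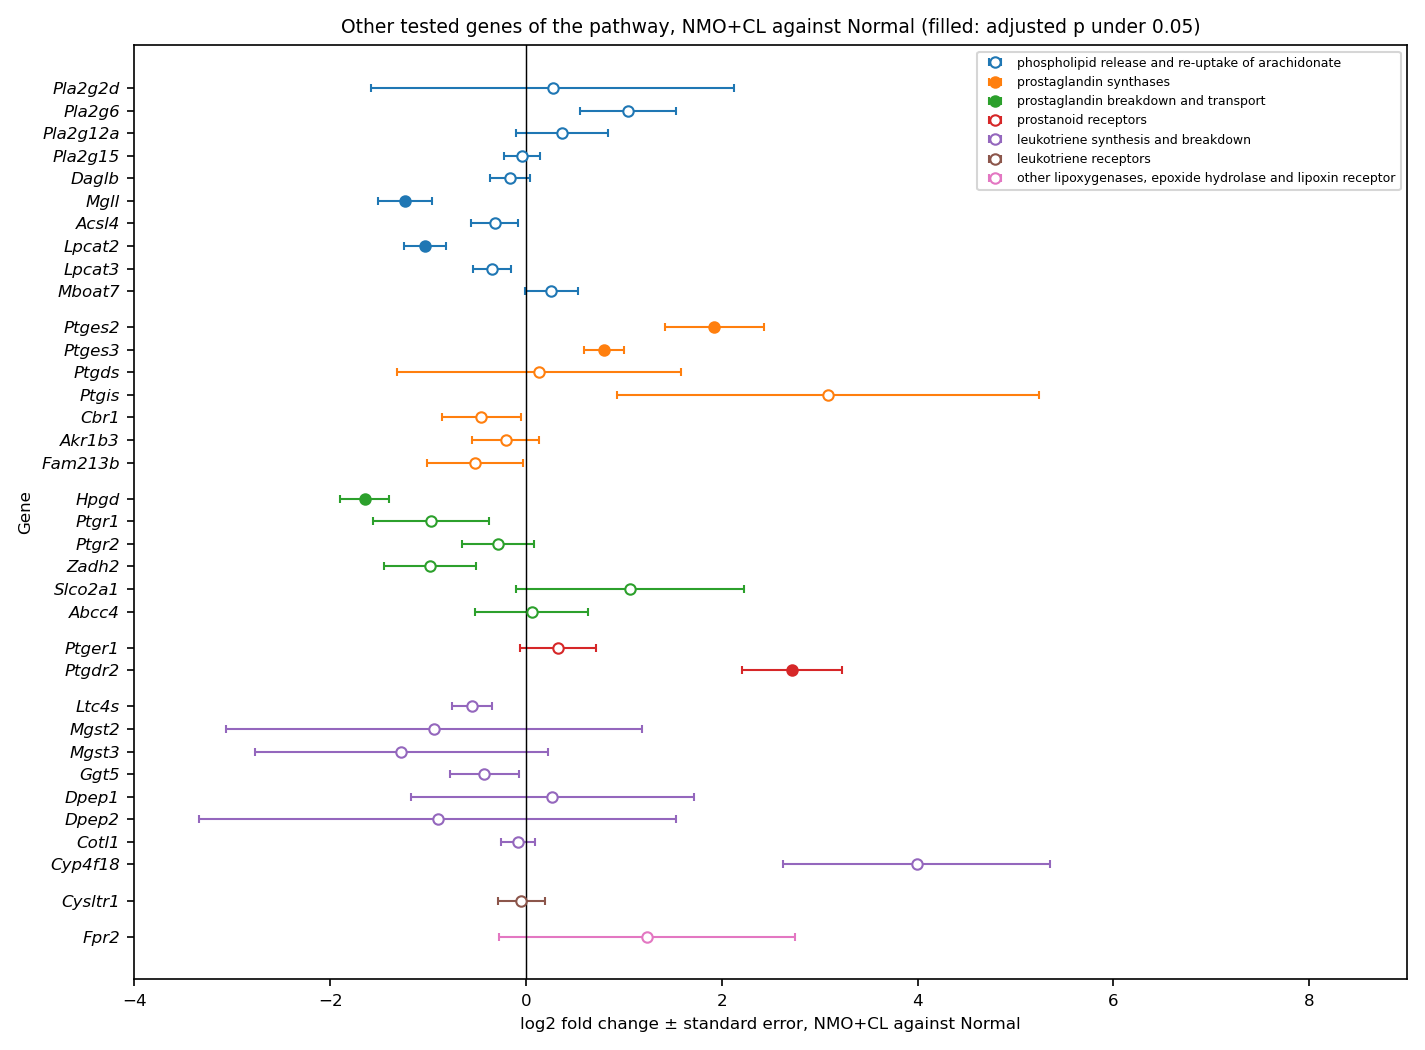
Log2 fold change ± SE of NMO+CL against Normal (horizontal axis) for the 35 tested genes of the wider list (vertical axis), coloured by their role and filled where the adjusted p was under 0.05. The filled points are Mgll, Lpcat2 and Hpgd below 0 and Ptges2, Ptges3 and Ptgdr2 above 0, and the long bars belong to genes with few counts.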

How the data were processed

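RNA of 9 pools of sorted microglia was made by the authors into QuantSeq libraries, which read the 3′ end of polyadenylated transcripts, and sequenced as single reads. Reads were aligned with Bowtie2 and counted with Bedtools, multiple alignments included. The deposited values are these raw read counts per gene symbol. The submitters' processing notes name mm10, and the annotation and use of strand are not given in the sources used here. Of 23282 entries, the 35 repeated symbols were summed.

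Counts were fitted with edgeR 4.0.16 in R 4.3.3, with TMM scaling, filterByExpr (minimum count 10, minimum total 15), 1 coefficient per group over all 9 libraries and two-sided quasi-likelihood F-tests. The common biological coefficient of variation was 0.519. The SE was taken as the absolute log2 fold change divided by the square root of F, an approximation. Replicates of a group differed by more than counting error, so none were merged. DESeq2 1.42.0 and limma-voom (limma 3.58.1) were among 16 alternatives. Coordinates are from GENCODE M21 (GRCm38), which 22197 symbols matched, and need not be those of the authors.

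The members, the wider list, the marker lists and the tests were chosen with earlier results of these data known. Of the wider list, the genes called in at least 1 comparison were named, and further genes named there were chosen after their values were seen.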

Additional observations from a re-analysis of the deposited data

How the results depend on the processing

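The calls of Hpgds, Alox5 and Alox5ap in NMO+CL against Normal were kept in all 16 alternatives, and the calls lost against NMO are given above. Members called in NMO+CL against NMO ranged from 0 to 2 on leaving out each library, with 0 when NMO replicate 1, its replicate 3 or NMO+CL replicate 2 was left out. At 1.5-fold and an unadjusted p under 0.05, the members called were 2 of 9 in NMO against Normal, beside 979 of all 12292 genes, and 5 of 9 in NMO+CL against Normal, beside 2472. All genes called in NMO against Normal were 61 (58 higher, 3 lower), and 96 with library totals alone, 223 without a low-count filter (185 and 38), 222 with DESeq2 (162 and 60), and 18 to 71 on leaving out each library. In NMO+CL against NMO they were 196, and 496 without a filter, 461 with DESeq2, 84 with only these 2 groups in the fit, 1320 at 1.5-fold and an unadjusted p under 0.05, and 31 to 225 on leaving out each library. In NMO+CL against Normal they were 1134 (589 higher, 545 lower), and 635 to 1270 on leaving out each library. Without a filter 737 were higher and 711 lower there, and with DESeq2 795 and 781.

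Log2 fold changes that turned direction belonged to values that were not called. They were Tbxas1 in NMO against Normal (0.0639 with library totals alone, -0.22 to 0.0925 on leaving out each library), Ptger4 in NMO+CL against NMO (-0.21 with limma-voom, -0.41 to 0.51), and Ptgs2 in NMO against Normal (-0.18 to 1.10), in NMO+CL against NMO (-1.62 to 0.47) and in NMO+CL against Normal (-0.65 with limma-voom, -0.51 with the replicate block, -1.0 to 0.88). The others were Lta4h in NMO+CL against NMO (-0.72 to 0.14) and against Normal (-0.16 to 0.69), Mgll (-0.48 to 0.00811) and Lpcat2 (-0.42 to 0.0356) in NMO against Normal, and Ptges3 in NMO+CL against NMO (-0.0310 to 0.20). The causes were not tested.

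Samples with the same replicate number did not deviate together (correlations of deviations from group means -0.0128 to 0.0380), and not every library correlated best with its own number, so the numbers were not taken as pairs. With the replicate block, 53, 197 and 1124 genes were called in NMO against Normal, NMO+CL against NMO and NMO+CL against Normal, Pla2g4a passed in the last (adjusted p = 0.0424) and Lpcat2 did not pass against NMO (adjusted p = 0.0751). For genes near 0 counts, such as Ptgs2 and Ptges, the few counts and their spread between libraries limit what could be seen.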
